A study of Rattus norvegicus with 13 samples.

Results

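The measurements described here are those of 10 genes used as markers of pancreatic duct cells: the keratins Krt7, Krt8, Krt18 and Krt19, the transcription factor Sox9, the secreted phosphoprotein Spp1 (osteopontin), the chloride channel Cftr, and the surface proteins Epcam, Cldn4 and Muc1. Every probe whose current or older gene symbol was one of these 10 was taken. This gave 7 of the 10 genes, of 12762 named genes in all, and 7 probes of the 26962 that are not controls, 1 each for Krt8, Krt18, Krt19, Spp1, Cftr, Epcam (listed under its older symbol Tacstd1) and Muc1. Krt7, Sox9 and Cldn4 were not analysed here.

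The series measured RNA of isolated pancreatic islets from male Sprague-Dawley rats of about 250 g. About 200 islets per condition were exposed for 18 h to an adenovirus and cultured for 60 h more in medium with 8 mM glucose and 10% serum. The virus was AdCMV-Nkx6.1 (5 arrays, called Nkx6.1 below), AdCMV-Pdx1 (3 arrays, Pdx1) or AdCMV-bGAL (5 arrays, bGAL), so the controls also carried a virus and its cargo, beta-galactosidase. Nkx6.1 and Pdx1 are homeobox factors of beta cells, and the CMV promoter named in the vectors is not specific to a cell type. Each array was 1 islet preparation labelled with Cy5 against a common pool of rat RNA labelled with Cy3, and each value is a log2 ratio of islet over that pool. A value of 2 therefore means a signal 4 times that of the pool, and a value tells nothing of how abundant one gene's RNA is beside another's.

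Keratins are intermediate filament proteins that assemble as pairs of 1 type II and 1 type I chain. In simple epithelia such as pancreatic ducts the type II chains are Krt7 and Krt8 and the type I chains are Krt18 and Krt19. Krt19, Sox9, Spp1 and Cftr are widely used to tell duct cells from endocrine cells, whereas Krt8, Krt18 and Epcam are made by many simple epithelia, endocrine cells included. During pancreas development duct and endocrine cells come from a common Sox9- and Pdx1-positive epithelium, in which Nkx6.1 takes part in separating the trunk, which gives ducts and endocrine cells, from the acinar tips.

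Islet identity and array quality bear on every value. The 9 beta-cell marker probes with a value on all arrays had a median log2 ratio of 3.81 to 5.65 on the Nkx6.1 arrays, 4.04 to 4.49 on the Pdx1 arrays and 3.83 to 4.69 on the bGAL arrays. The rat Nkx6-1 probe read 2.31 to 3.77 on the Nkx6.1 arrays, 2.51 to 3.51 on the Pdx1 arrays and 3.33 to 4.14 on the bGAL arrays; whether it also detects the transferred cDNA is not known, so it gives no check of the Nkx6.1 virus, and no Pdx1 probe was used here. Empty values made up 35.4% to 61.2% of Nkx6.1 array 1 and bGAL arrays 1, 2, 3 and 5, and 0.23% to 15.5% of the other 8 arrays. These array sets were seen in the data and follow the groups in part, so for some probes differences within a set are also given. Nkx6.1 array 2 stood apart, with an SD over complete probes of 2.135 against 1.43 to 1.501 on the other arrays with few empty values. The arrays with many empty values, mostly bGAL arrays, had SDs of 1.778 to 1.898, above that range, so the groups differed in spread too.

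Of the 7 probes, 6 had at least 2 values in every group and entered the limma fit over 17965 probes; Cftr had a single bGAL value and did not. None of the 6 passed a Benjamini-Hochberg adjusted p of 0.05 in any comparison, while 0.640% of all probes passed for Nkx6.1 against bGAL, 0.546% for Pdx1 against bGAL and 0.217% for Nkx6.1 against Pdx1. Before adjustment, 1 of the 6 was under the 0.05 threshold for Nkx6.1 against bGAL (14.4% of all probes), 1 for Pdx1 against bGAL (11.9%) and 3 for Nkx6.1 against Pdx1 (6.85%). Against bGAL, the members with an unadjusted p under 0.05 were 2 keratins: Krt18 was 1.94-fold higher on average under Nkx6.1 than under bGAL, and Krt19 was 2.27-fold lower on average under Pdx1 than under bGAL. Differences of like or larger size in Muc1 and Cftr rested on fewer values and are given below. In such bulk RNA, fewer cells of a type and less RNA per cell cannot be told apart. The median difference of the 6 probes was 0.00 for Nkx6.1 against bGAL (all probes -0.08), -0.43 for Pdx1 against bGAL (all probes -0.10) and 0.75 for Nkx6.1 against Pdx1 (all probes 0.02). Both comparisons with bGAL share the same 5 control arrays.

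**Figure D1:**
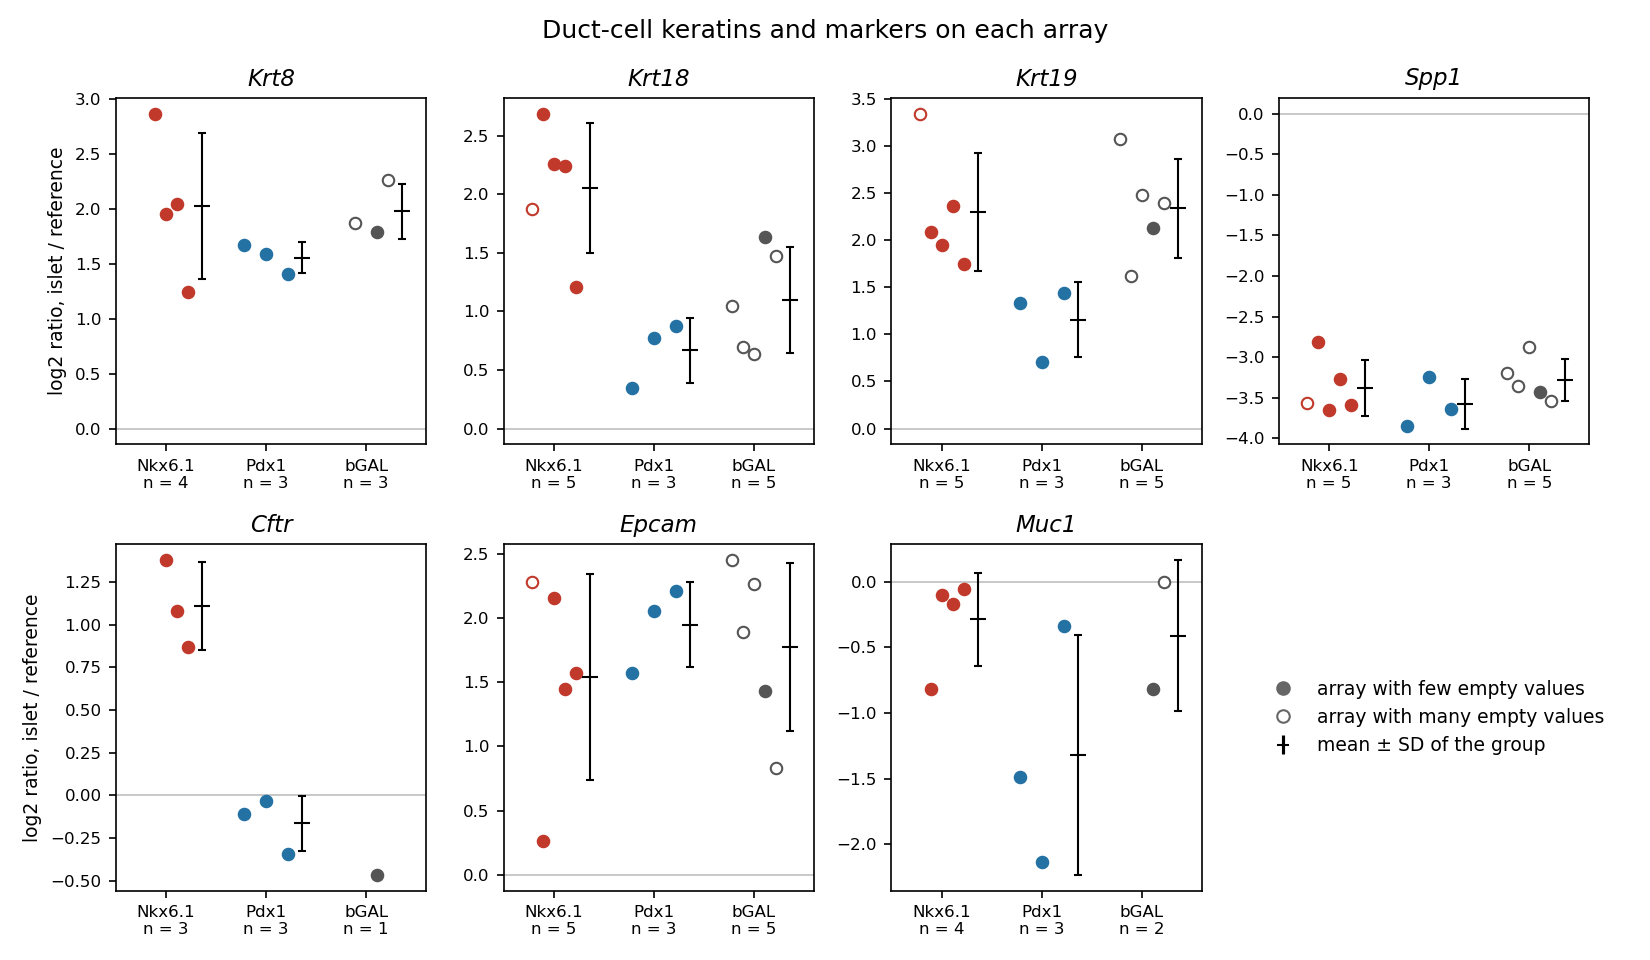
Log2 ratio of islet over reference RNA (y axis) on each array for the 7 duct keratin and marker probes, by virus (x axis), with open points for arrays with many empty values and the mean ± SD of the group beside the points. Krt18 averaged 2.05 under Nkx6.1, 0.67 under Pdx1 and 1.10 under bGAL, Krt19 lay lowest on the 3 Pdx1 arrays, and Spp1 lay below -2.8 on every array.

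Krt18, the type I partner of Krt8, read 1.88, 2.69, 2.26, 2.24 and 1.21 on the Nkx6.1 arrays, 0.35, 0.78 and 0.88 on the Pdx1 arrays, and 1.05, 0.70, 0.63, 1.64 and 1.47 on the bGAL arrays. Of the 5 Nkx6.1 arrays, 4 lay above every bGAL array, and the fifth lay within the bGAL range; all 5 lay above the Pdx1 arrays. Nkx6.1 minus bGAL was 0.96 (SE 0.295, 95% interval 0.32 to 1.59; limma adjusted p = 0.174), and the two-sided exact permutation test over 252 splits gave p = 0.0317, where the smallest possible is 0.00794. Nkx6.1 minus Pdx1 was 1.39 (SE 0.341, 95% interval 0.65 to 2.12, 2.62-fold; limma adjusted p = 0.224), with an exact permutation p of 0.0179, the smallest that 56 splits allow. Pdx1 minus bGAL was -0.43 (95% interval -1.17 to 0.30; limma adjusted p = 0.692), with an exact permutation p of 0.196. These exact p were not adjusted for the number of tests.

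The Krt18 values followed the array sets in part. Among the 8 arrays with few empty values, Nkx6.1 minus bGAL was 0.46, with 4 Nkx6.1 arrays and 1 bGAL array whose value lay among them. Among the arrays with many empty values it was 0.91, with the single Nkx6.1 array above all 4 bGAL arrays. Nkx6.1 minus Pdx1 was 1.43 among the arrays with few empty values, where the groups again did not overlap. Pdx1 minus bGAL was -0.97 among these arrays, with the 1 bGAL array above all 3 Pdx1 arrays, -0.79 with array set as a term in the fit and -0.15 after quantile normalization.

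Krt8, the type II chain, read 2.87, 1.96, 2.05 and 1.25 on Nkx6.1 arrays 2 to 5, 1.68, 1.59 and 1.40 on the Pdx1 arrays, and 1.88, 1.79 and 2.27 on bGAL arrays 2, 4 and 5, and was empty on the other 3 arrays. The Nkx6.1 values spanned those of both other groups, and the 3 Pdx1 values lay below the 3 bGAL values. The differences were 0.05 for Nkx6.1 against bGAL (95% interval -0.73 to 0.84; limma adjusted p = 0.956), -0.42 for Pdx1 against bGAL (95% interval -1.26 to 0.42; limma adjusted p = 0.739) and 0.47 for Nkx6.1 against Pdx1 (95% interval -0.31 to 1.26; limma adjusted p = 0.776). Krt8 and Krt18 both had their highest value of the series on Nkx6.1 array 2, the array with the widest spread, and their lowest Nkx6.1 value on array 5. The partner chains thus had unlike average differences from bGAL under Nkx6.1, 0.05 for Krt8 and 0.96 for Krt18, but Krt8 rested on fewer arrays and the difference between these responses was not tested.

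Krt8 and Krt18 lie close together on rat chromosome 7, with 0 protein-coding genes and 1 other gene between them in RefSeq. Their start regions are shown as a description, and whether they bear on the group averages of these partner genes was not tested. Each runs from 250 bases before to 50 after the annotated start, 5′ to 3′ on the gene's strand, from RefSeq's GRCr8 build: chr7:135010290-135010589, minus strand, for Krt8 and chr7:135035918-135036217, plus strand, for Krt18. Capitals mark TATAAA, read on both strands (2 overlapping matches in Krt8, 0 in Krt18), and TAAT, the core letters that homeobox factors bind, read on both strands (0 matches in Krt8, 1 in Krt18, read there as ATTA).
Krt8: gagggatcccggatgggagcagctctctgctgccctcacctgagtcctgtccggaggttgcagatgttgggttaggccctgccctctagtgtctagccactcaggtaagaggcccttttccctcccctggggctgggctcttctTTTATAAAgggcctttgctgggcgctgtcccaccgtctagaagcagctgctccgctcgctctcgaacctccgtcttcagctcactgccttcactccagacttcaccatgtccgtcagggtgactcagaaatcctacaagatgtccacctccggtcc
Krt18: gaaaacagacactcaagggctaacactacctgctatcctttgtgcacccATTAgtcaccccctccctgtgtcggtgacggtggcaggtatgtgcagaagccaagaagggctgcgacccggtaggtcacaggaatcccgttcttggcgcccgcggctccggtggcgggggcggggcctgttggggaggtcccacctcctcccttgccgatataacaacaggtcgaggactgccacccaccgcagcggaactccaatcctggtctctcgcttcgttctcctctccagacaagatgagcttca
Of 33469 RefSeq start regions of this length, 60.6% hold TAAT and 14.2% hold TATAAA on either strand. The longer homeobox core TAATTA, found in 5.36% of all regions, was in none of the 6 member regions that RefSeq's table gave (Krt8, Krt18, Spp1, Cftr, Epcam and Muc1). A match describes letters in this window and no binding was measured. The annotated start of Krt8 falls on atg, the letters of a start codon, whereas that of Krt18 does not. The windows may therefore not begin from the same kind of site, so their match counts are not directly comparable.

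Krt19, the type I keratin most used to mark ducts, read 3.34, 2.08, 1.96, 2.36 and 1.74 on the Nkx6.1 arrays, 1.33, 0.71 and 1.44 on the Pdx1 arrays, and 3.07, 1.62, 2.48, 2.14 and 2.39 on the bGAL arrays. All 3 Pdx1 arrays lay below all other arrays, and the Nkx6.1 and bGAL values covered much the same range. Pdx1 minus bGAL was -1.18 (SE 0.386, 95% interval -2.01 to -0.35; limma adjusted p = 0.243), and the exact permutation test over 56 splits gave p = 0.0357, where the smallest possible is 0.0179. Nkx6.1 minus Pdx1 was 1.14 (95% interval 0.31 to 1.97, 2.20-fold; limma adjusted p = 0.513), with an exact permutation p of 0.0357. Nkx6.1 minus bGAL was -0.04 (95% interval -0.76 to 0.68; limma adjusted p = 0.963), with an exact permutation p of 0.897.

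Within the arrays with few empty values, Pdx1 minus bGAL for Krt19 was -0.98 with 1 bGAL array, and Nkx6.1 minus Pdx1 was 0.88 without overlap. With the array set as a term in the fit, Pdx1 minus bGAL was -0.56 (limma adjusted p = 0.999), and after quantile normalization it was -0.47. The highest Krt19 values of the Nkx6.1 and bGAL groups were both on arrays with many empty values, and their part in the group difference was not tested apart from these fits.

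Group values that did not overlap were found for Krt8 and Krt19 in Pdx1 against bGAL, 2 of the 6 probes where 19.5% of all probes did the same. In Nkx6.1 against Pdx1 they were found for Krt18 and Krt19, 2 of 6 against 12.1% of all probes, and in Nkx6.1 against bGAL for 0 of 6 against 7.73%. With 6 probes, shares this size rest on single genes.

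**Figure D2:**
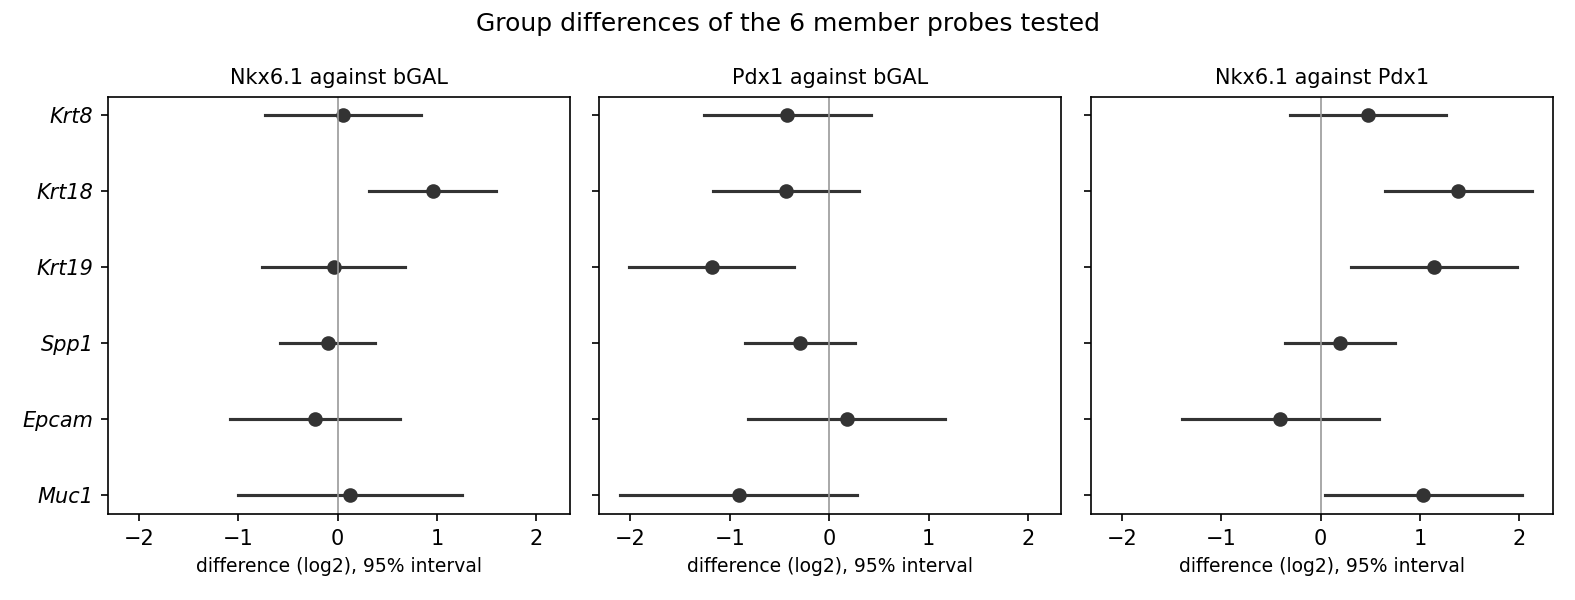
Differences between groups on the log2 scale (x axis) for the 6 member probes in the fit (y axis), with points for the limma estimate and lines for its 95% interval, in 3 comparisons. The interval leaves out 0 for Krt18 in Nkx6.1 against bGAL, for Krt19 in Pdx1 against bGAL, and for Krt18, Krt19 and Muc1 in Nkx6.1 against Pdx1; none of these passed after adjustment over all probes.

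Epcam, an epithelial cell adhesion molecule found on duct and endocrine cells, read 2.28, 0.26, 2.16, 1.45 and 1.57 on the Nkx6.1 arrays, 1.57, 2.06 and 2.21 on the Pdx1 arrays, and 2.45, 1.89, 2.26, 1.43 and 0.83 on the bGAL arrays. The 3 groups overlapped, with the lowest value on Nkx6.1 array 2. Nkx6.1 minus bGAL was -0.23 (95% interval -1.09 to 0.63; limma adjusted p = 0.801), Pdx1 minus bGAL 0.18 (95% interval -0.81 to 1.16; limma adjusted p = 0.937) and Nkx6.1 minus Pdx1 -0.40 (95% interval -1.39 to 0.58; limma adjusted p = 0.824).

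Spp1, a secreted phosphoprotein made by duct cells and also by macrophages, lay far below the reference pool on every array. It read -3.57, -2.81, -3.65, -3.27 and -3.60 on the Nkx6.1 arrays, -3.85, -3.24 and -3.63 on the Pdx1 arrays, and -3.19, -3.35, -2.87, -3.43 and -3.54 on the bGAL arrays. The groups overlapped, and its SD within groups of 0.307 was the smallest of the 6 probes tested, against a median of 0.520 over all probes. The differences were -0.10 for Nkx6.1 against bGAL (95% interval -0.58 to 0.38; limma adjusted p = 0.845), -0.30 for Pdx1 against bGAL (95% interval -0.85 to 0.26; limma adjusted p = 0.724) and 0.19 for Nkx6.1 against Pdx1 (95% interval -0.36 to 0.75; limma adjusted p = 0.842). The 11 macrophage and leukocyte probes with a value on all arrays had a median log2 ratio of -1.46 to -0.09 on the Nkx6.1 arrays, -1.37 to -0.93 on the Pdx1 arrays and -0.39 to 0.00 on the bGAL arrays. These medians followed the array sets in part. The highest Nkx6.1 median, -0.09, was on array 1, with many empty values, and the lowest bGAL median, -0.39, on array 4, with few. The part of these cells in the Spp1 values was not tested.

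Muc1, a membrane mucin of the apical duct surface, read -0.82, -0.10, -0.17 and -0.06 on Nkx6.1 arrays 2 to 5, -1.49, -2.14 and -0.34 on the Pdx1 arrays, and -0.82 and 0.00 on bGAL arrays 4 and 5. The lowest 2 values were on Pdx1 arrays, and the third Pdx1 value lay within the range of the other groups. Pdx1 minus bGAL was -0.91 (95% interval -2.10 to 0.28; limma adjusted p = 0.557), Nkx6.1 minus Pdx1 1.04 (95% interval 0.04 to 2.03; limma adjusted p = 0.718) and Nkx6.1 minus bGAL 0.12 (95% interval -1.005 to 1.25; limma adjusted p = 0.924). The first 2 differences were -0.50 and 0.63 without Pdx1 array 2, and -1.40 and 1.53 without Pdx1 array 3. Pdx1 minus bGAL was also -0.50 with array set as a term and -0.48 with the replicate number as a block. The bGAL 5 value lay within 0.01 of 0 and was shared exactly by 6 other probes of that array, so its size is uncertain.

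Cftr, the chloride channel that drives fluid and bicarbonate secretion in ducts, had values of 1.38, 1.08 and 0.87 on Nkx6.1 arrays 3 to 5, -0.11, -0.03 and -0.35 on the Pdx1 arrays, and -0.46 on bGAL array 4. The 3 Nkx6.1 values lay above the other 4. In a fit of Nkx6.1 and Pdx1 alone the difference was 1.27 (SE 0.236, 95% interval 0.70 to 1.84) and did not pass (limma adjusted p = 0.24 over 25600 probes, of which 0.133% passed). In the fit of the 8 arrays with few empty values, Nkx6.1 minus bGAL was 1.57 (limma adjusted p = 0.505), with 1 bGAL value. The 3 Pdx1 values were shared exactly by 20, 29 and 3 other probes of the same arrays and the bGAL value by 2, whereas no Nkx6.1 value of Cftr was shared. The size of the Cftr difference is therefore uncertain.

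Among the 17965 probes in the fit, ranked by their mean in each group, Krt19 lay above 97.0% under Nkx6.1, 90.9% under Pdx1 and 94.4% under bGAL. For Krt18 these shares were 96.3% under Nkx6.1, 82.3% under Pdx1 and 84.7% under bGAL. Krt8 lay above 96.2% of probes under Nkx6.1, 94.0% under Pdx1 and 92.8% under bGAL, and Epcam above 93.8%, 95.9% and 91.5%. Spp1 lay above 1.40% of probes under Nkx6.1, 1.45% under Pdx1 and 2.47% under bGAL. The 3 measured keratins and Epcam were thus enriched over the pool in islets of all groups, while Spp1 was depleted, so the measured duct markers did not lie on 1 side of the pool. These ranks are of ratios to the pool and depend on what tissues it holds. Each group is ranked on its own, and Krt19 had the lower rank under bGAL although it averaged 2.30 under Nkx6.1 and 2.34 under bGAL.

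Other keratins were represented by 41 probes of 32 genes in the list used, of which 19 probes of 15 genes were tested and 0 passed in any comparison. Of these 19, 5 probes lay below -3 in every group, for Krt10 (2 probes), Krt14, Krt15 and Krt16, which are keratins of stratified epithelia. The other 14 had means between -2 and 2 in every group. Only Krt20 exceeded 1 in bGAL, on 1 of its 2 probes, with a mean of 1.09 ± 2.56 (SD, n = 3), and only Krt2 exceeded 1 in Pdx1, with 1.19 ± 1.59 (SD, n = 3), of which 2 values were shared exactly by other probes. The simple-epithelial set of Krt8, Krt18 and Krt19 was therefore the part of the tested family with means above 1 in more than 1 group.

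**Figure D3:**
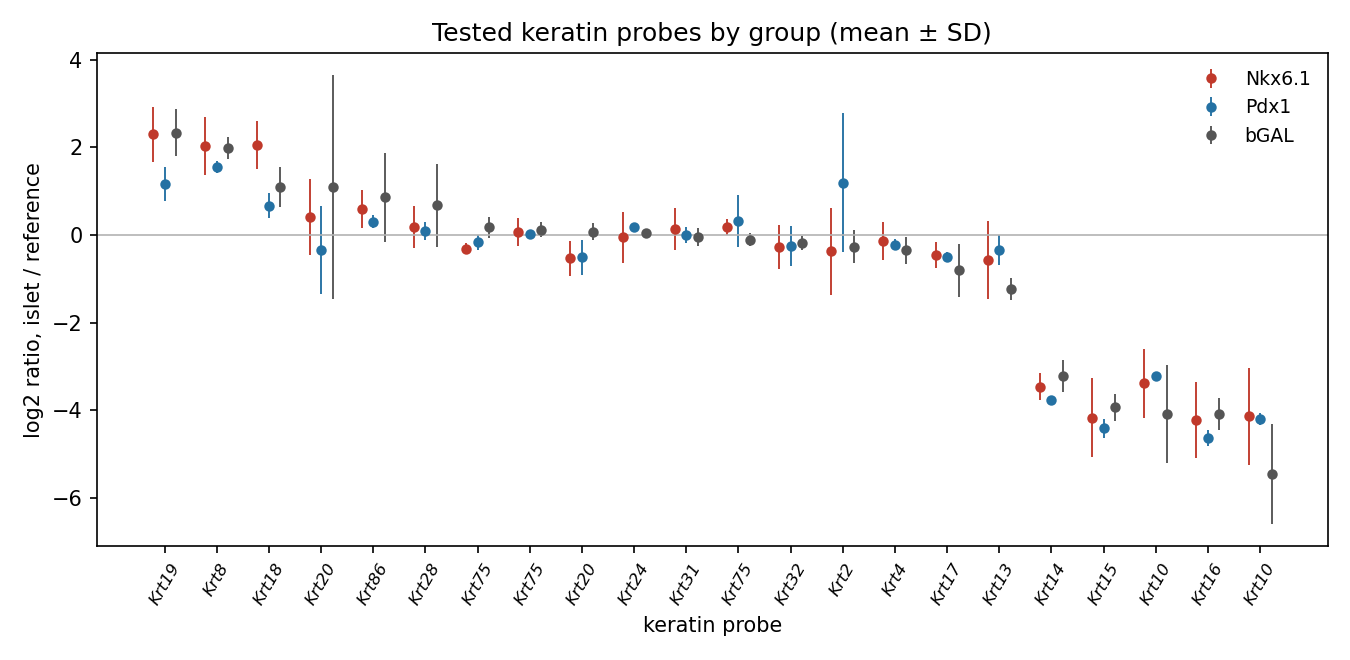
Mean log2 ratio ± SD (y axis) of each tested keratin probe (x axis) under Nkx6.1, Pdx1 and bGAL, ordered by the bGAL mean. Krt19, Krt8 and Krt18 lie between 0.67 and 2.34, most others lie near 0, and the probes of Krt10, Krt14, Krt15 and Krt16 lie below -3.

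A list of 33 further duct genes had 23 probes tested, of which 0 passed in any comparison. For Nkx6.1 against bGAL 11 were higher and 12 lower (median -0.12, all probes -0.08), for Pdx1 against bGAL 7 were higher and 16 lower (median -0.14, all probes -0.10), and for Nkx6.1 against Pdx1 16 were higher and 7 lower (median 0.36, all probes 0.02). Slpi, a secreted protease inhibitor of mucosal epithelia, averaged -1.26 ± 0.752 under Nkx6.1 (SD, n = 5), -3.54 ± 0.309 under Pdx1 (n = 3) and -3.002 ± 0.939 under bGAL (n = 5). Its differences were 1.74 against bGAL (limma adjusted p = 0.11) and 2.27 against Pdx1 (limma adjusted p = 0.151). Anxa3, a calcium-dependent membrane-binding protein, differed by 0.88 (limma adjusted p = 0.0852) and S100a6, a calcium-binding protein, by 1.00 (limma adjusted p = 0.182) for Nkx6.1 against bGAL, both without overlap. For Pdx1 against bGAL the smallest p was that of Itgb6, an integrin beta chain of epithelia, at -0.62 (limma adjusted p = 0.265).

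The list of duct fluid and bicarbonate secretion, to which Cftr's partners belong, had 18 probes tested and 0 passed. Nherf1, the scaffold that binds the tail of Cftr, averaged -1.77 ± 0.503 under Nkx6.1 and -2.89 ± 0.184 under bGAL (SD, n = 5 each), a difference of 1.12 without overlap (limma adjusted p = 0.0652). Under Pdx1 it averaged -2.31 ± 0.270 (n = 3), 0.58 above bGAL with overlap (limma adjusted p = 0.443). Nkx6.1 minus Pdx1 was 0.54 for Nherf1, also with overlap (limma adjusted p = 0.752). Car2, the carbonic anhydrase that supplies bicarbonate, averaged -3.95 ± 0.551 under Nkx6.1 (SD, n = 5), -1.83 ± 0.337 under Pdx1 (n = 3) and -2.53 ± 0.645 under bGAL (n = 5). Its differences were -1.42 for Nkx6.1 against bGAL (limma adjusted p = 0.0852) and -2.12 for Nkx6.1 against Pdx1 (limma adjusted p = 0.0513), with no overlap in either. Cftr and Nherf1 were thus higher on average under Nkx6.1, and Car2 lower, each short of the threshold. Cftr had 1 bGAL value, and whether these genes change together was not tested.

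Among epithelial junction and identity genes, 22 probes were tested and 1 passed. F11r, a junctional adhesion molecule of tight junctions, was higher under Nkx6.1, at 0.77 ± 0.183, than under bGAL, at -0.19 ± 0.111 (SD, n = 5 each; difference 0.96, SE 0.163, limma adjusted p = 0.0203), with no overlap. The call was lost with array set as a term in the fit (limma adjusted p = 0.196) and with the replicate number as a block (0.135). It was lost too in a fit of the 2 groups alone (0.0987). Over all probes, 13, 21 and 26 passed in these fits, against 115 as reported. The F11r call was also lost on leaving out any one of bGAL 1, 2 or 3 or Nkx6.1 3, 4 or 5 (0.0527 to 0.065). On the arrays with few empty values, which hold 1 bGAL array, the difference was 0.74. For Pdx1 against bGAL 21 of the 22 were lower and 1 higher, where 42.3% of all probes were higher, and 0 passed (median -0.56, all probes -0.10). Crb3, an apical polarity protein, was at -2.30 there (limma adjusted p = 0.063). It was also lower than bGAL under Nkx6.1, at -1.87 (limma adjusted p = 0.0888), with no overlap in either comparison. Of its 3 bGAL values, 1 was shared exactly by 15 other probes of that array. For Nkx6.1 against bGAL 15 of the 22 were lower and 7 higher (median -0.16, all probes -0.08). For Pdx1 against bGAL with array set as a term 16 of the 22 were lower (median -0.27, all probes 0.02), so the lower side was less marked in that fit. On the arrays with few empty values, with their 1 bGAL array, 31 probes of the list could be tested, a larger set. Of these 19 were lower, where the median of all probes was 0.0006.

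The list of keratin partners and other intermediate filaments had 19 probes tested and 0 passed; the smallest p for Pdx1 against bGAL was that of Pkp1, a desmosomal plakophilin, at -1.64 (limma adjusted p = 0.116). Under Nkx6.1 Pkp1 was also below bGAL, at -1.30 without overlap (limma adjusted p = 0.14). Of its 3 bGAL values 2, and of its 3 Pdx1 values 1, were shared exactly by 3 to 6 other probes, so both sizes are uncertain. Osteopontin receptors and the proteases that cleave it had 15 probes tested and 0 passed. The smallest p for Nkx6.1 against bGAL was that of Itga5, an integrin alpha chain, at -1.59 (limma adjusted p = 0.0922). Itga5 was also lower under Pdx1 than under bGAL, at -1.19 without overlap (limma adjusted p = 0.264). The network around Sox9, with Notch and Hippo genes, had 20 probes tested and 0 passed; its median difference was -0.06 for Nkx6.1 against bGAL and -0.09 for Pdx1 against bGAL, close to those of all probes. Acinar markers, which would mark exocrine tissue carried along with ducts, had 11 probes tested and 0 passed; the 3 with a value on all arrays had medians of -0.39 to 1.05 on the Nkx6.1 arrays, 0.02 to 0.54 on the Pdx1 arrays and -0.64 to 0.34 on the bGAL arrays, and their part in the duct-gene values was not tested. Fibroblast and endothelial lists had 14 and 5 probes tested and 0 passed. Macrophage and leukocyte markers had 14 probes tested and 0 passed, and beta-cell markers 9 and 0. Among 6 probes of alpha and other hormone cells, Hhex, a homeobox factor of delta cells, passed: it averaged -3.36 ± 0.322 under Nkx6.1 (SD, n = 5), -0.71 ± 0.322 under Pdx1 (n = 3) and -1.71 ± 0.237 under bGAL (n = 5). It was lower under Nkx6.1 than under bGAL (difference -1.65, limma adjusted p = 0.00406) and than under Pdx1 (difference -2.65, limma adjusted p = 0.000266). For Nkx6.1 against bGAL 0 of the list passed with array set as a term or with the replicate block. Over all probes 13 and 21 passed in these fits, against 115 as reported. The arrays with few empty values hold 1 bGAL array, too few to decide a call.

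**Figure D4:**
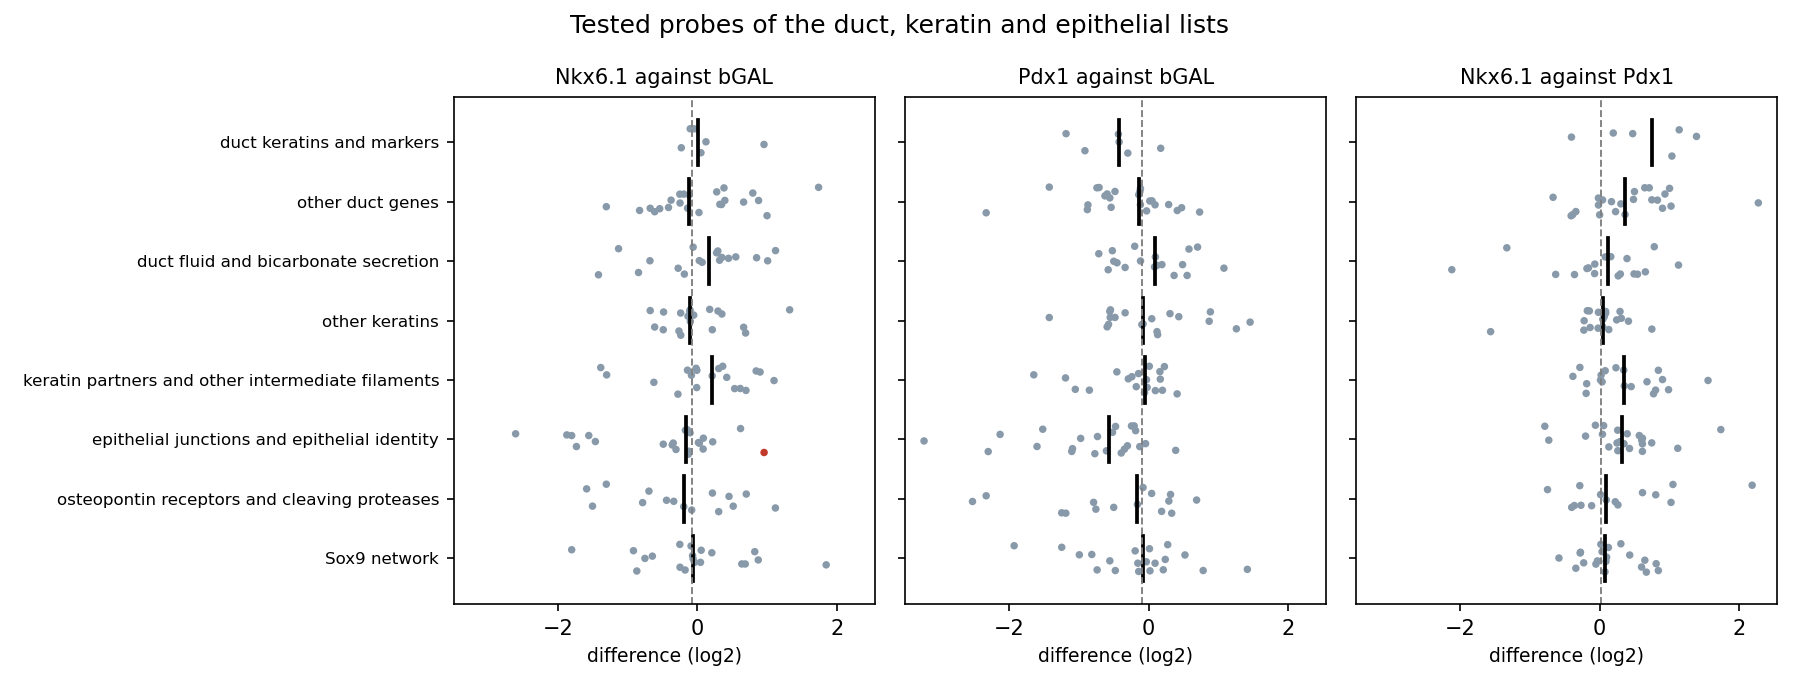
Difference on the log2 scale (x axis) of each tested probe in 8 gene lists (y axis) for 3 comparisons, with a black bar at the list's median, a dashed line at the median of all probes and a red point for an adjusted p under 0.05. The only red point is F11r in Nkx6.1 against bGAL, and the duct keratins and markers have medians of 0.00, -0.43 and 0.75.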

How the data were processed

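RNA was amplified in 2 rounds and labelled from 500 ng per sample, with Cy5 for islets and Cy3 for the reference, per the labels' protocols. The authors deposited log2 ratios of islet over reference, already processed and centred near 0; base 2 was inferred from their range. How they corrected background, normalized and left values empty is not given in the sources used here. Signals were not used, so the number of arrays limits precision. Probes were named from GEO's platform annotation, updated through RefSeq (12034 current symbols, 3713 updated, 60 unmatched, 11155 probes unnamed).

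Differences came from limma 3.58.1 (R 4.3.3, statmod 1.5.0): 1 model, 3 groups, 13 arrays, probes with at least 2 values per group, two-sided, Benjamini-Hochberg adjustment over 17965 probes, threshold 0.05. The procedure was tested on simulated data. The labels call replicates independent, so each array counted as 1 sample. Member probes complete in both groups also had exact permutation tests, which were not adjusted and took no account of the array sets. For Spp1 and Epcam these exact tests gave p of 0.214 to 0.714 over all comparisons. Members and lists were chosen with earlier results of these data known. All members are named. From each other list the rule allows the calls and, where fewer than 3 passed, the smallest p up to 3; the text gives every call and some of the others. Alternatives were other normalizations, filters, blocks and left-out arrays. Same-numbered arrays of different groups correlated at -0.239 to 0.475 in their deviations, 2 of 11 pairs over 0.1. Arrays of different groups and numbers correlated at -0.53 to 0.454, so numbers were not treated as pairs in the main fit. Both pairs over 0.1 lay within 1 array set, so this check cannot tell pairing from the array sets.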

Additional observations from a re-analysis of the deposited data

Results flagged for a closer look

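Muc1 on Nkx6.1 array 2, at -0.82, lay far below the other 3 Nkx6.1 values of -0.17 to -0.06, with a gap of 0.847 of the group's range. It was the 1 value marked among 10 groups of 4 or more values examined, and chance marks about 1 group in 20. The same array had the widest spread over all probes, and 1 other probe of that array held exactly the same value.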

How the results depend on the processing

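No member passed in any alternative fit. The median member difference for Nkx6.1 against bGAL was 0.47 after quantile normalization and 0.33 with array set as a block, against 0.00 as reported. Signs changed as follows: for Nkx6.1 against bGAL, Epcam was 0.39 after quantile normalization and 0.17 with the array block, Krt19 0.55 and 0.43 in these fits and 0.011 with arrays scaled to one spread, and Spp1 0.10 on arrays with few empty values alone; for Pdx1 against bGAL, Krt8 was 0.17 after quantile normalization, against -0.42 as reported. Leaving out single arrays gave -0.46 to 0.091 for Epcam, -0.30 to 0.14 for Krt19 and -0.23 to 0.31 for Krt8 (Nkx6.1 against bGAL), and -0.060 to 0.36 for Epcam (Pdx1 against bGAL). The cause was not tested. The other 398 single-probe values kept their direction and side of the threshold. Krt18, Nkx6.1 against bGAL, ranged from 0.46 to 1.32 over the other settings (limma adjusted p 0.134 to 0.99) and from 0.80 to 1.17 without single arrays (0.0682 to 0.34).

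With the replicate number as a block, Epcam for Pdx1 against bGAL was -0.050; 0 members passed, while calls over all probes were 21, against 115 without it, for Nkx6.1 against bGAL and 22, against 98, for Pdx1 against bGAL. Calls over all probes moved by over 1.5 times in other settings too: 13 with the array block, 0 on arrays with few empty values alone and 595 without bGAL 4, for Nkx6.1 against bGAL.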

Other observations

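In the fit of Nkx6.1 and Pdx1 alone, 21 keratin probes could be tested that had under 2 bGAL values, and 1 passed, against 0.133% of the 25600 probes in that fit; 3 had an unadjusted p under 0.05, against 7.09% of all. Krt25, a type I keratin of the inner root sheath of hair, read 0.76, -0.03 and 0.22 on Nkx6.1 arrays 3 to 5, against 4.17, 4.05 and 3.802 on the Pdx1 arrays, and 0.79 on bGAL array 4. Nkx6.1 minus Pdx1 was -3.69 (SE 0.281, limma adjusted p = 0.0168). The 3 Nkx6.1 values were shared exactly by 10, 30 and 13 other probes of their arrays and the bGAL value by 4, whereas the Pdx1 values were shared by 0. Krt27, which lies near Krt25 in RefSeq, read -0.08, 0.41, -0.13 and 0.44 on Nkx6.1 arrays 2 to 5, against 2.56, 1.43 and 1.40 on the Pdx1 arrays, and 0.37 on bGAL array 4, and did not pass (difference -1.64, limma adjusted p = 0.281). Its value on Nkx6.1 array 2 was shared exactly by 15 other probes. One probe of Krt73, a type II keratin of the same hair layer, read 3.83, 0.00 and 0.04 on Nkx6.1 arrays 3 to 5, against 3.61, 4.26 and 4.94 on the Pdx1 arrays, and 1.81 on bGAL array 4 (difference -2.98, limma adjusted p = 0.661). Its values on Nkx6.1 arrays 4 and 5 were shared exactly by 26 and 28 other probes, and its bGAL value by 6. The second Krt73 probe read -0.03 on Pdx1 array 1, shared exactly by 14 other probes, and was empty on the other Pdx1 arrays. It read 0.19 and -1.25 on Nkx6.1 arrays 3 and 5 and -0.04 on bGAL array 4. Krt28 and Krt72 did not share the high Pdx1 values. Krt28 averaged 0.10 under Pdx1 (n = 3), 0.19 under Nkx6.1 (n = 4) and 0.67 under bGAL (n = 2). Krt72 averaged -0.07 under Pdx1 (n = 2) and -0.17 under Nkx6.1 (n = 3), with 1.70 under bGAL (n = 1). Krt25, Krt27 and Krt73 were chosen after their values were seen.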
